A study of Rattus norvegicus with 16 samples.

Results

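The genes described here are those of B cells, of antibody secretion and of a lymphoid chemokine: Ighe, Jchain, Mzb1, Cd79a, Cd79b, Ms4a1 and Ccl19, matched by name to the rows of the deposited table. All 7 had a row among the 17085 genes of the table, and all 7 were among the 11376 genes that passed the filter on low counts. They were chosen by their levels in these same libraries, with earlier results known and the deciding comparison not recorded, so their levels and differences are given below as a description and carry no test. B cells carry a membrane antibody that signals through the paired chains CD79A and CD79B, and most mature B cells also carry CD20, the product of Ms4a1. After activation some become plasma cells, which stop displaying the receptor and secrete antibody, with MZB1 helping to fold and assemble the chains and the J chain joining IgM and IgA into polymers. CCL19 is made by stromal cells of lymphoid tissue and draws T cells, B cells and dendritic cells that carry CCR7, and in the injured heart B cells are known to gather among other leukocytes.

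RNA from the infarct zone of rat hearts was sequenced in 16 bulk libraries, 4 in each of 4 groups. MI_stiff and MI_soft hearts underwent ligation of the left anterior descending artery and received a stiff or a soft hydrogel, a water-swollen polymer, MI hearts had the ligation without hydrogel, and Sham hearts were the surgical controls. The labels give neither strain, sex, age nor time after surgery, do not say whether a group's libraries came from separate animals, and name MI/R (usually infarction with reperfusion) in the extraction text, so p-values measure only how these libraries vary, which may be technical. Fewer cells of a type and less RNA per cell cannot be told apart in bulk tissue.

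Library totals lay between 10940685 and 14456188 counts, and 10470 to 12820 genes had at least 1 count. The fewest genes were seen in MI 2 (10470), MI 3 (10958), MI 4 (11283) and MI_soft 4 (11785), and the most in MI 1 (12820) and MI_soft 3 (12819). MI 1 thus stood apart from the other MI libraries, which had fewer genes detected than every library of the other groups. The summed level of 8 cardiomyocyte genes was 16564 to 22114 CPM (counts scaled to a common library size with TMM factors) in MI_stiff, 18685 to 34165 in MI_soft, 15091 to 23774 in MI and 47969 to 60250 in Sham. A count of 0 allows up to 3 counts, which is 0.184 to 0.284 CPM depending on the library, counting error only.

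Promoters were in the RefSeq table of assembly GRCr8 for 3 of the 7 genes, and every promoter found is shown. Each is the 250 bases before the start of the gene, 5′ to 3′ on the gene's strand. Capitals mark matches to any of 4 motifs searched on both strands: the octamer ATGCAAAT bound by OCT factors with Pou2af1, PU.1 as GAGGAA, Ets as AGGAAGT and the E2A E-box as CAGGTG.
Jchain, chr14:19822726-19822975, plus strand: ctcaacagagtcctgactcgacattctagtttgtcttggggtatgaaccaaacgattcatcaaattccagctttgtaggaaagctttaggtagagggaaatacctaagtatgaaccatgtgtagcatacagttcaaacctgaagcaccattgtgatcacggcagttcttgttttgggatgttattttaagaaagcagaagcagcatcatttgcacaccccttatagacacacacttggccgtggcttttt
Cd79a, chr1:89621210-89621459, plus strand: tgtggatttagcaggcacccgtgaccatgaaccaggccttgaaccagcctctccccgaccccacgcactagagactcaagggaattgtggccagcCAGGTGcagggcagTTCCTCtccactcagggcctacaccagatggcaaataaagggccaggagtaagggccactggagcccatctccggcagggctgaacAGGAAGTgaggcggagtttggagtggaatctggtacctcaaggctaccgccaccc
Ccl19, chr5:61761165-61761414, minus strand: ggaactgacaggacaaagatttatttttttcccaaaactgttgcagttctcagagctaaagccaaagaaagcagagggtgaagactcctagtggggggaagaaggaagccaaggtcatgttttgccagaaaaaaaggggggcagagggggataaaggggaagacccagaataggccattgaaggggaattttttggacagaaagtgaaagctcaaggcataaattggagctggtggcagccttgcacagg

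The Cd79a window held 3 matches that did not overlap each other. They were CAGGTG at −155 to −150, the PU.1 letters on the other strand, TTCCTC, at −141 to −136 and AGGAAGT at −55 to −49, counted back from the gene's start. Of 33469 rat promoter windows of the same length, 15.9% held the E-box, 23.3% the PU.1 letters and 7.08% the Ets letters, so each is common by itself. The Jchain and Ccl19 windows held none of the 4, of which the octamer was in 1.56% of windows.

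Ighe, named for the constant region of the IgE heavy chain, was the most abundant of the 7 genes in MI_soft in TPM, the deposited length-scaled unit. It stood at 4.90, 10.6, 11.5 and 6.45 CPM in MI_stiff 1 to 4, at 4273, 166, 731 and 2309 CPM in MI_soft 1 to 4, at 208, 4.10, 3.38 and 5.83 CPM in MI 1 to 4, and at 6.45, 6.34, 2.95 and 7.53 CPM in Sham 1 to 4. All 4 MI_soft libraries lay above every MI_stiff and Sham library, and MI 1 reached into the MI_soft range while the other 3 MI libraries stayed at the Sham level. In MI_soft 1 the 57194 Ighe counts made up 0.487% of the library (95% Wilson interval 0.483 to 0.491), against 0.017% (0.0163 to 0.0178) in MI_soft 2.

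The log2 difference of Ighe was −7.80 ± 1.39 (SE of the edgeR fit, n = 4 libraries per group here and below) for MI_stiff against MI_soft. By size it ranked 1 of the 11376 tested genes in that comparison. It was 8.33 ± 1.42 for MI_soft against Sham, 0.52 ± 1.09 for MI_stiff against Sham and 5.07 ± 1.22 for MI_soft against MI. For MI against Sham it was 3.26 ± 1.15, a value set by MI 1: without that library it was −0.43.

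Ighe was the only row whose name is that of an immunoglobulin constant gene and that had counts. Of the other names with the same first letters, Ighmbp2 and Iglon5 are not antibody genes and Igll1, a surrogate light chain, was at 0. Other heavy chain classes and the light chains were not analysed here, so whether reads of other antibody classes were assigned to Ighe was not tested. The number of counts per unit of TPM gives the length used for a gene up to a factor, and for Ighe it ran between 14 and 22.7 across libraries, wider than for any other member (Jchain 15.2 to 15.4, Ccl19 6.82 to 7.17).

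Jchain, the joining chain of polymeric antibody, followed the same order of libraries within MI_soft at its ends. Its levels were 5.43, 2.49, 2.39 and 1.75 CPM in MI_stiff, 259, 31.4, 157 and 53.3 CPM in MI_soft, 18.7, 0, 1.03 and 3.01 CPM in MI, and 0.389, 2.84, 1.48 and 1.90 CPM in Sham. The lowest MI_soft library, MI_soft 2, was above all 12 libraries of the other groups. The log2 difference was −5.37 ± 1.04 for MI_stiff against MI_soft, 6.25 ± 1.10 for MI_soft against Sham and 4.42 ± 0.98 for MI_soft against MI.

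Mzb1, the chaperone of marginal zone B cells and plasma cells, was at 0.383, 0, 0.915 and 0.134 CPM in MI_stiff, 31.5, 5.48, 27.5 and 27.4 CPM in MI_soft, 2.77, 0, 0 and 0 CPM in MI, and 0.389, 0.662, 0.621 and 0.475 CPM in Sham. Every MI_soft library exceeded every other library, and MI 1 was the only MI library with a count. The MI libraries at 0, MI 2, MI 3 and MI 4, had the fewest genes detected of all libraries, whose part in these zeros was not tested. The log2 difference was −5.95 ± 1.17 for MI_stiff against MI_soft and 5.40 ± 1.14 for MI_soft against Sham. In TPM, which allows genes to be compared, MI_soft averaged 1690 ± 1990 for Ighe, 117 ± 109 for Jchain and 31.9 ± 18.9 for Mzb1 (SD, n = 4).

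The proportions of these genes differed between MI_soft libraries. The ratio of Jchain to Mzb1 TPM was 5.11, 3.57, 3.56 and 1.22 in MI_soft 1 to 4. The ratio of Ighe to Jchain TPM was 17.9, 4.10, 3.95 and 45.6 in the same libraries. MI_soft 4 thus had the lowest Jchain relative to Mzb1 and the highest Ighe relative to Jchain, and it was also the MI_soft library with the fewest genes detected, whose part in these ratios was not tested.

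The receptor genes were less abundant, with MI_soft means of 7.26 TPM for Cd79a, 4.88 TPM for Cd79b and 2.49 TPM for Ms4a1. Cd79a, the alpha signalling chain of the B cell receptor, was at 0.153, 0.241, 0.352 and 0.0672 CPM in MI_stiff, 7.17, 0.608, 1.65 and 4.60 CPM in MI_soft, 0.615, 0, 1.41 and 0 CPM in MI, and 0.0777, 0.757, 0.233 and 0.396 CPM in Sham. Its groups of MI_soft and MI_stiff did not overlap, while MI_soft 2 lay below Sham 2, MI 1 and MI 3. Summed over each group, 184 counts in MI_soft stood against 17 in Sham, a depth-scaled ratio of 9.88 (95% counting interval 6.0 to 17.3, which covers counting error only).

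Cd79b, the beta chain, was at 0.383, 0, 0.563 and 0.672 CPM in MI_stiff, 14.2, 0.152, 3.83 and 5.93 CPM in MI_soft, 1.41, 0, 1.88 and 1.28 CPM in MI, and 0.0777, 0.757, 0.155 and 0.555 CPM in Sham. MI_soft 1, 3 and 4 were above all other libraries, but MI_soft 2 was at the level of the low Sham libraries, so MI_soft overlapped each of the other groups. The highest MI_soft library was 93.3 times the lowest, against 25.8 times for Ighe and 4.92 times for Ccl19. The 321 counts in MI_soft against 18 in Sham gave a ratio of 16.3 (10.1 to 27.8).

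Ms4a1, which encodes CD20, was at 0, 0.0804, 0.211 and 0 CPM in MI_stiff, 7.92, 1.44, 2.97 and 1.67 CPM in MI_soft, 0, 2.68, 0 and 0.182 CPM in MI, and 0.0777, 0.0946, 0 and 0.0792 CPM in Sham. All MI_soft libraries were above all MI_stiff and Sham libraries, and the high MI library was MI 2, not MI 1 as for Ighe, Jchain and Mzb1. The 4 Sham libraries held 3 counts together, against 190 in MI_soft (ratio 57.8, counting interval 19.5 to 283) and 34 in MI (11.1, 3.5 to 56.6). Of the 34 in MI, 32 were in MI 2, and the intervals do not cover such spread between libraries. The log2 difference for MI_stiff against MI_soft was −4.05 ± 1.15 for Cd79a, −3.85 ± 1.17 for Cd79b and −5.41 ± 1.43 for Ms4a1.

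Ccl19 was above Sham in every library of all 3 ligated groups. Its levels were 9.26, 10.6, 12 and 4.97 CPM in MI_stiff, 29.5, 51.4, 25.0 and 123 CPM in MI_soft, 41.7, 40.2, 17.9 and 28.0 CPM in MI, and 0.777, 1.51, 0.854 and 1.27 CPM in Sham. No ligated library fell to the Sham range, MI_stiff lay below both MI_soft and MI without overlap, and MI_soft and MI overlapped. The log2 difference from Sham was 3.06 ± 0.50 in MI_stiff, 5.70 ± 0.54 in MI_soft and 4.86 ± 0.53 in MI, and it was −2.64 ± 0.45 for MI_stiff against MI_soft, −1.79 ± 0.44 for MI_stiff against MI and 0.84 ± 0.43 for MI_soft against MI.

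**Figure D1:**
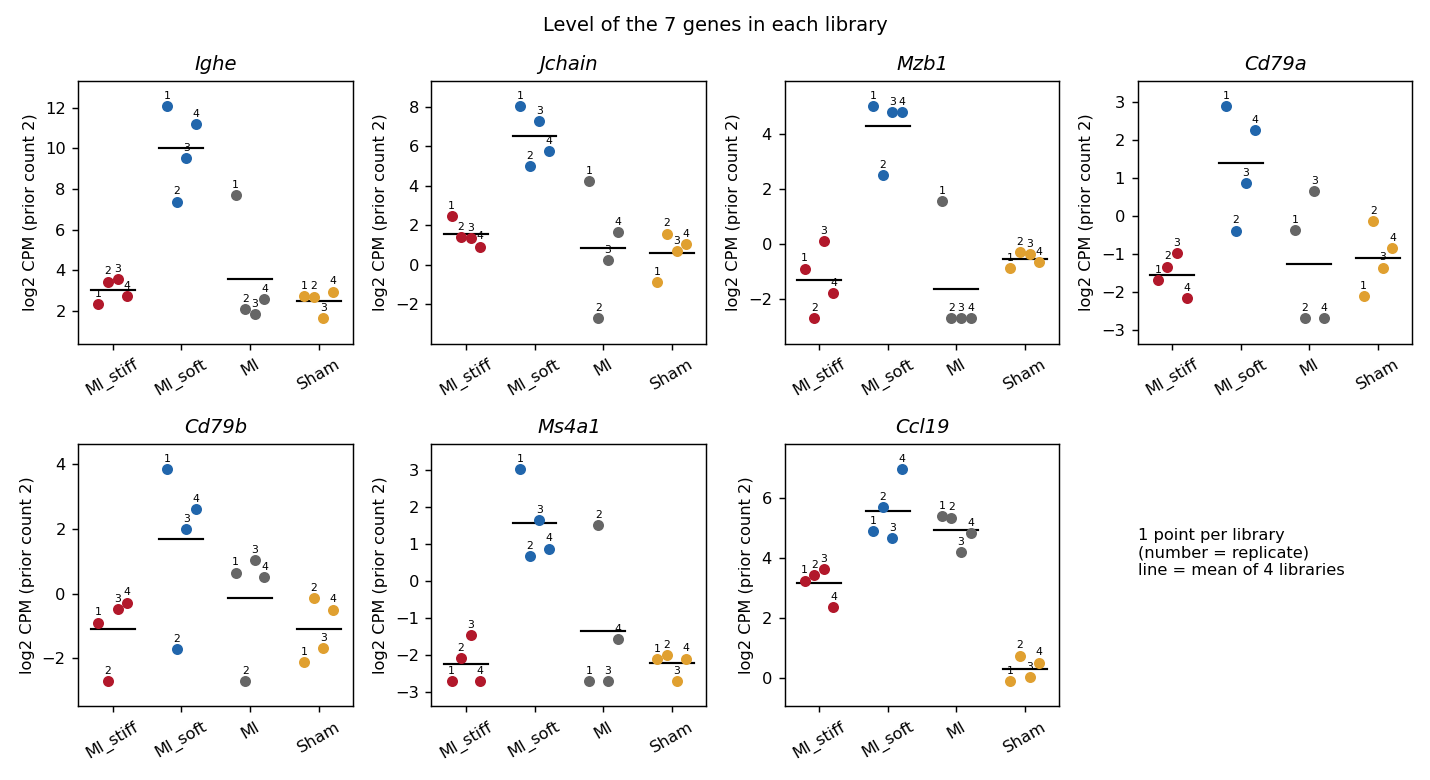
Level of each of the 7 genes in each library (log2 CPM with a prior count of 2, 1 point per library, numbered by replicate, line at the mean of 4). The MI_soft libraries lie high for Ighe, Jchain and Mzb1, MI 1 is the high MI library for the same 3 genes, and Ccl19 is above Sham in every ligated library.

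Ordered by mean log2 CPM, MI_soft was the highest group for all 7 genes. The gap from MI_soft to the next group was larger than the larger SD of the pair for Ighe, Jchain, Mzb1, Cd79a and Ms4a1, and smaller for Cd79b and Ccl19. Below MI_soft, the neighbouring groups lay within that spread of each other for all genes except Ccl19, whose order MI_soft, MI, MI_stiff, Sham had gaps beyond the spread from MI to MI_stiff (1.77 log2 units against an SD of 0.56) and from MI_stiff to Sham (2.87 against 0.55).

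Within MI_soft the libraries kept a common order at the extremes. MI_soft 1 was the highest of the group for 6 of the 7 genes and MI_soft 2 the lowest for the same 6, the exception being Ccl19, for which MI_soft 4 was the highest and MI_soft 3 the lowest. Within MI, MI 1 was the highest for 4 of the 7 genes. MI 1 lay inside the MI_soft range for 4 of the 7 (Ighe, Cd79a, Cd79b and Ccl19), as it did for 70.1% of all tested genes.

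A gene was called at an adjusted p under 0.05 in edgeR's quasi-likelihood test over all tested genes. For MI_stiff against MI_soft, 2 of the 7 members were called lower (Ighe and Ccl19), where 0.0352% of all tested genes were called lower, and 6 of the 7 had no overlap of libraries on the lower side, as had 6.87% of all tested genes (4.47% did on the higher side, where 0.0615% were called). For MI_soft against Sham all 7 were called higher, where 16.4% of tested genes were (9.71% lower), and 5 of 7 did not overlap, where 20.9% did not. The Cd79a call was lost in 7 of 24 alternatives, among them without MI_soft 1, MI_soft 4, Sham 1, Sham 3 or Sham 4. The Cd79b call was lost in 5 of 24, among them without MI_soft 1, Sham 1 or Sham 3. For MI_stiff against Sham Ccl19 was called higher, where 12.7% of tested genes were (8.44% lower), and for MI against Sham Ccl19 and Ighe were called higher, where 20.2% of tested genes were. No member was called for MI_soft against MI (0% of tested genes higher, 0.0264% lower) or MI_stiff against MI (0.492% higher, 0.694% lower), where 2.55% and 3.97% of tested genes did not overlap on the higher side and 1.69% and 3.9% on the lower. Of the 7, 2 (Jchain and Mzb1) did not overlap on the higher side for MI_soft against MI. For MI_stiff against MI 1 of the 7 (Ccl19) did not overlap on the lower side. The 2 called for MI_stiff against MI_soft became 0 without MI_soft 4, Sham 3, Sham 4 or any 1 MI_stiff library, 1 without MI_soft 1, MI_soft 3, Sham 1 or Sham 2, and 4 without MI 1, MI 2, MI 3 or MI_soft 2. The 2 for MI against Sham became 1 without MI_soft 4 or any 1 Sham library, and 3 members were called for MI_soft against MI without MI 1 and 1 for MI_stiff against MI without MI 1, MI 3 or MI_soft 4. These counts describe genes that were chosen with such results known.

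**Figure D2:**
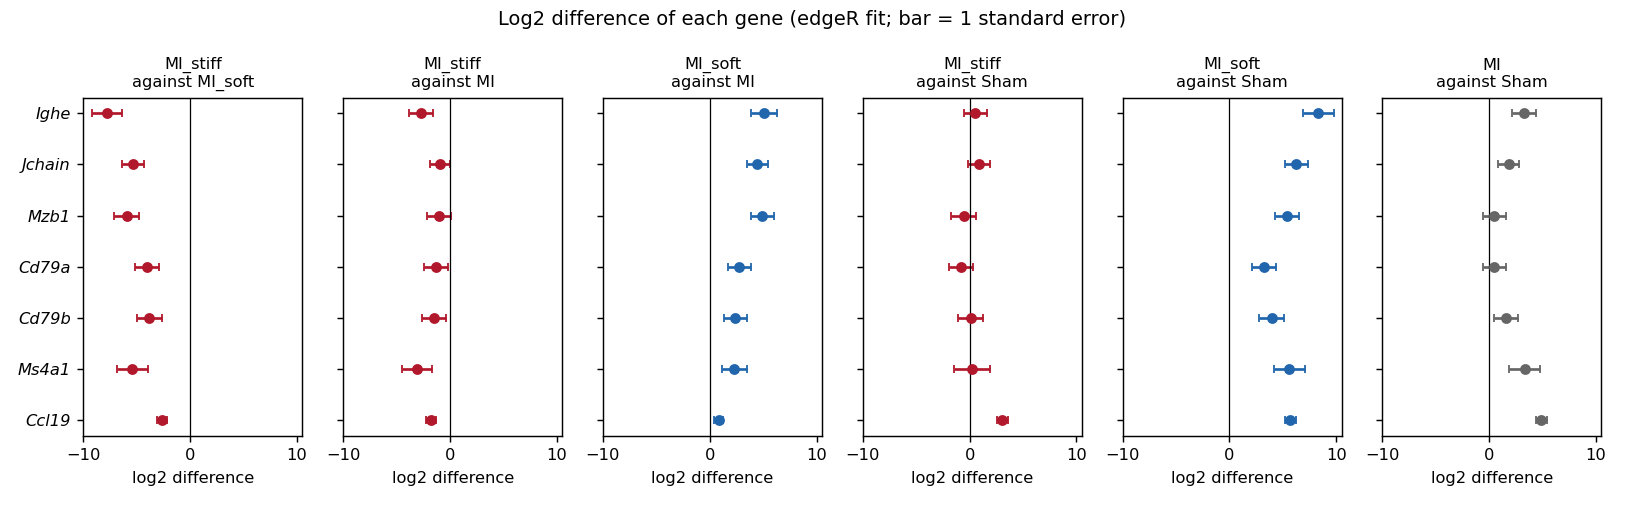
Log2 difference of each gene in the 6 comparisons (edgeR fit, bars 1 SE, n = 4 libraries per group). The first 6 genes are near 0 for MI_stiff against Sham and far above 0 for MI_soft against Sham, while Ccl19 is above 0 in all 3 comparisons with Sham; the Ms4a1 values against Sham rest on 3 Sham counts.

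The pairwise likeness of the members over the 16 libraries is given as a description, since the libraries share the 4 groups. Pearson's r between log2 levels was 0.932 for Ighe and Mzb1, 0.908 for Ighe and Jchain, 0.809 for Cd79a and Cd79b and 0.615 for Ighe and Ccl19. After the mean of each group was subtracted these were 0.822, 0.671, 0.718 and 0.271 in the same order. Ms4a1 had r between −0.419 and 0.0406 with the other members after that step. Within MI_soft, however, it was highest in MI_soft 1 and lowest in MI_soft 2, as were Ighe, Jchain, Mzb1, Cd79a and Cd79b. In MI its counts were 0, 32, 0 and 2, and in MI_stiff and Sham at most 3 per library. Its r values thus rest in part on few reads.

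**Figure D3:**
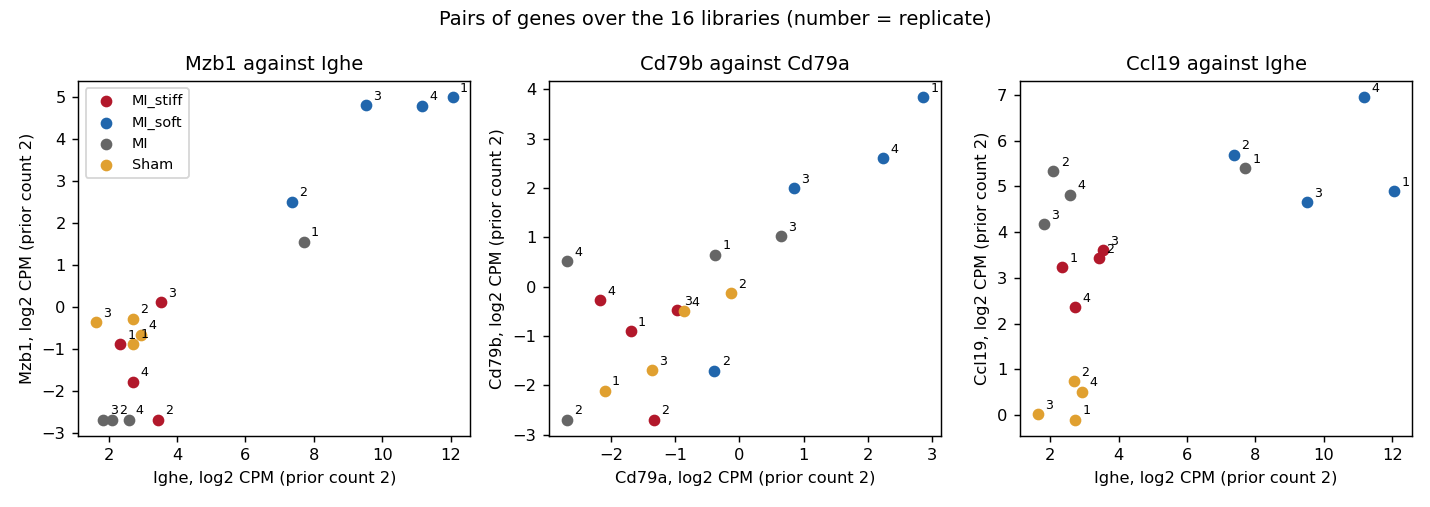
Level of 3 pairs of genes over the 16 libraries (log2 CPM, prior count 2, coloured by group and numbered by replicate). Mzb1 is high where Ighe is high, in MI_soft and MI 1 (r = 0.932), Cd79b is high where Cd79a is (r = 0.809), and MI 2, MI 3 and MI 4 have more Ccl19 than Sham at similar Ighe.

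Other genes of the B lineage were taken from lists of receptor and signalling genes, transcription factors, plasma cell genes and germinal centre genes. Of 66 listed genes apart from the members, 58 had a row and 45 were tested. For MI_soft against Sham 19 of the 45 were called higher and 1 lower (edgeR, all genes tested), with a median log2 difference of 1.0, where the median of all tested genes was 0.01. These were 42.2% of the 45 called higher, against 16.4% of all tested genes, and 2.22% lower, against 9.71%. For MI_stiff against Sham 6 were called higher and 1 lower (median 0.38, all tested genes 0.02), and for MI against Sham 10 higher and 2 lower (median 0.67, all tested genes 0.06). The shares called higher, 13.3% in MI_stiff and 22.2% in MI, lay near those of all tested genes, 12.7% and 20.2%. These 3 comparisons share the Sham libraries. For MI_soft against Sham the total called was 13, 13, 12 and 12 without Sham 1, 2, 3 and 4, and for MI against Sham it was 19 without MI 1 (10 higher, 9 lower) and 20 without MI_soft 4 (14 higher, 6 lower).

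Between the ligated groups none of the 45 was called. The number at an unadjusted p under 0.05 was 13 for MI_stiff against MI_soft, 9 for MI_stiff against MI and 13 for MI_soft against MI. As shares these were 28.9%, 20% and 28.9% of the 45, against 14.3%, 17% and 15.5% of all tested genes. The medians were −0.43, 0.06 and 0.62 log2 units. DESeq2's Wald test called 2, 4 and 6 of them, and without MI 1 edgeR called 1, 9 and 15. For MI_stiff against MI edgeR called 1 without MI 3 and 3 without MI_soft 4.

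Pou2af1, the coactivator of octamer-driven antibody genes, had levels most like those of the members. It stood at 0, 0.161, 0.281 and 1.01 CPM in MI_stiff, 20.4, 2.21, 11.1 and 4.76 CPM in MI_soft, 1.48, 0, 0 and 0 CPM in MI, and 0.311, 0.851, 0 and 0.0792 CPM in Sham. All MI_soft libraries were above all others. It rose in MI_soft against Sham by 4.96 ± 1.34 log2 units (edgeR, adjusted p = 0.0113), and its difference was −4.67 ± 1.3 for MI_stiff against MI_soft (adjusted p = 0.136) and 4.54 ± 1.29 for MI_soft against MI (adjusted p = 0.149). The rise against Sham was called in all 25 alternatives, with an adjusted p of at most 0.0442, and the difference from MI reached an adjusted p of 0.00465 without MI 1.

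Spib, a further B cell transcription factor, had 147 counts in MI_soft against 3 in Sham (ratio 44.7, counting interval 15 to 219, counting error only). It was at 0.306, 1.21, 0.281 and 0 CPM in MI_stiff, 3.96, 0.532, 2.25 and 4.43 CPM in MI_soft, 1.66, 0, 0 and 0 CPM in MI, and 0, 0, 0 and 0.238 CPM in Sham. MI_stiff 2 and MI 1 thus lay above MI_soft 2. Spib rose in MI_soft against Sham by 5.31 ± 1.62 (edgeR, adjusted p = 0.0222). That call was lost without Sham 1, Sham 2 or Sham 3 (adjusted p of at most 0.071). Pax5, which fixes B cell identity, had counts only in MI_soft 1, at 0.299 CPM, and did not pass the filter. Spi1, which encodes PU.1 and also serves macrophages, rose by 3.17 ± 0.55 in MI_stiff (adjusted p = 0.000551), 3.38 ± 0.56 in MI_soft (adjusted p = 0.000276) and 2.02 ± 0.53 in MI (adjusted p = 0.0072, and 0.092 with limma-voom), each against Sham in edgeR's test. Irf8, shared by B cells and macrophages, rose in MI_soft against Sham by 1.32 ± 0.48 (adjusted p = 0.0494), a call lost in 17 of 25 alternatives.

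Of 18 tested receptor and signalling genes, 9 were called higher and 1 lower in MI_soft against Sham (50% and 5.56%, against 16.4% and 9.71% of all tested genes). The genes with the smallest adjusted p, Syk, Cd37, Cd72 and Ptpn6, are also used by other leukocytes. Syk, a kinase of antigen and Fc receptors, rose by 2.25 ± 0.32 in MI_stiff, 2.58 ± 0.33 in MI_soft and 1.11 ± 0.32 in MI (edgeR against Sham, adjusted p = 0.000105, 2.45e-05 and 0.0112), and the call in MI was lost without MI 1 (adjusted p = 0.0689). Cd37 and Cd72 likewise rose in all 3 ligated groups, Cd72 by 3.01 ± 0.62, 3.85 ± 0.63 and 2.58 ± 0.62 in the same order (adjusted p = 0.00211, 0.000288 and 0.0037).

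Fcer2, the low-affinity receptor for IgE on B cells, fell in each ligated group against Sham: it was 6.35, 7.24, 6.12 and 9.81 CPM in MI_stiff, 8.74, 8.21, 2.91 and 17.6 CPM in MI_soft, 15.1, 7.12, 5.35 and 4.92 CPM in MI, and 24.1, 23.8, 23.3 and 27.6 CPM in Sham. The groups did not overlap with Sham, and the log2 differences were −1.74 ± 0.43, −1.40 ± 0.43 and −1.60 ± 0.43 (edgeR, adjusted p = 0.0083, 0.0229 and 0.00829). In MI_soft the call was lost without MI_soft 1, MI_soft 2, Sham 2 or Sham 4 (adjusted p of at most 0.0627), and in MI without the 4 libraries with few detected genes (adjusted p = 0.259). Cd22, an inhibitory receptor of B cells, did not pass in MI_soft against Sham (2.06 ± 0.96, adjusted p = 0.123).

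Of 13 tested plasma cell genes 6 were called higher in MI_soft against Sham, 1 in MI_stiff against Sham, and 3 higher and 1 lower in MI against Sham. The shares called higher were 7.69% in MI_stiff, 46.2% in MI_soft and 23.1% in MI, against 12.7%, 16.4% and 20.2% of all tested genes, so those in MI_stiff and MI were not far from the background. Derl3, a component of the protein disposal machinery of the endoplasmic reticulum, was at 0.383, 0.322, 0.422 and 0.336 CPM in MI_stiff, 3.06, 1.83, 1.32 and 2.51 CPM in MI_soft, 0.492, 0, 1.59 and 0 CPM in MI, and 0.155, 0.0946, 0.155 and 0 CPM in Sham, and rose in MI_soft against Sham by 4.29 ± 1.14 (edgeR, adjusted p = 0.0101). Tnfrsf17, the BCMA receptor of plasma cells, rose by 3.60 ± 1.24 in the same comparison (adjusted p = 0.0406), with 2.09, 0.304, 1.32 and 1.76 CPM in MI_soft, and lost the call without any 1 MI_soft library other than MI_soft 2, without MI_stiff 3 and without any 1 Sham library (adjusted p of at most 0.115). Sdf2l1, Creld2 and Pdia4, which serve folding in the endoplasmic reticulum of many cell types, rose by 1.87 ± 0.32, 1.59 ± 0.28 and 1.14 ± 0.23 (adjusted p = 0.000358, 0.000515 and 0.00166).

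Xbp1, a driver of the secretory programme, rose in MI_soft by 0.79 ± 0.22 (adjusted p = 0.0143) and in MI by 0.85 ± 0.22 (adjusted p = 0.00662) against Sham. The call in MI_soft was lost without Sham 4 (adjusted p = 0.0611) and that in MI without the 4 libraries with few detected genes (adjusted p = 0.274). Prdm1, the regulator of plasma cell fate, differed by −1.07 ± 0.54 in MI_soft and −1.40 ± 0.54 in MI against Sham and did not pass (edgeR, adjusted p = 0.152 and 0.0523). Tent5c, which stabilises antibody transcripts in plasma cells, fell in MI against Sham by 3.05 ± 0.83 on the log2 scale (adjusted p = 0.00866). It had 0.738, 0, 0 and 0.547 CPM in MI and 2.72, 3.03, 2.25 and 3.33 CPM in Sham, and its adjusted p was 0.0881 without the 4 libraries with few detected genes.

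Of 4 tested germinal centre genes Fas, a death receptor of many cell types, was the only one called, and only in MI against Sham (1.3 ± 0.36, adjusted p = 0.0097 in edgeR's test). That is 25% of the 4, where 20.2% of all tested genes were called higher. The call was lost without the 4 libraries with few detected genes, which leaves MI with MI 1 alone.

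**Figure D4:**
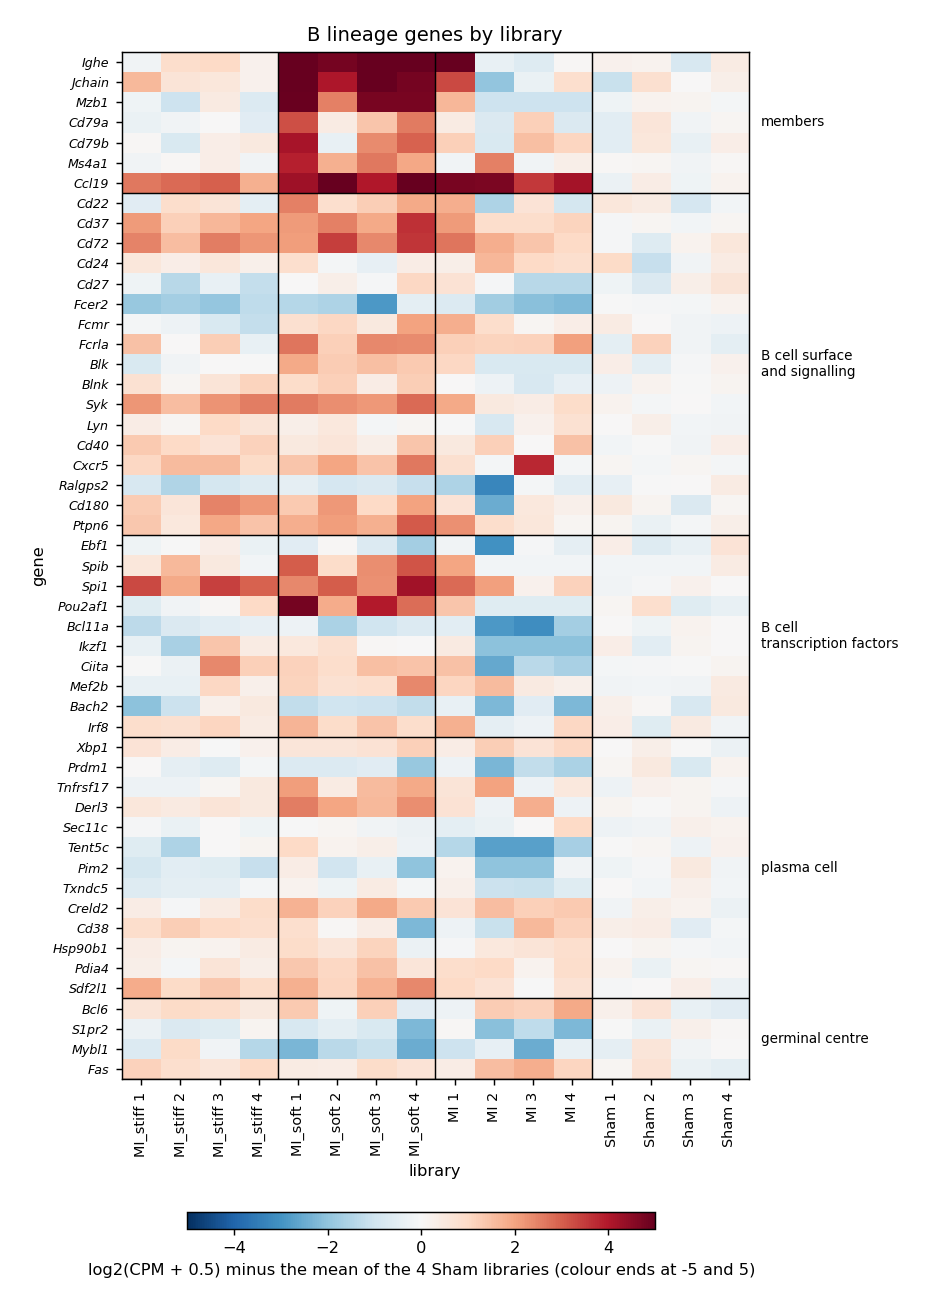
Level of the 7 members and the tested B lineage genes, 1 left out, in each library, as log2(CPM + 0.5) minus the Sham mean, in the order of the lists. The members other than Ccl19, and Pou2af1 and Spib, are red mainly in MI_soft, Syk, Spi1 and Cd72 in all ligated groups, and Fcer2 is blue in all ligated groups.

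The signals that feed or place B cells were read from a list of 8 survival factors, 5 of them tested, and a list of 18 genes of lymphoid chemokines and their receptors, 12 of them tested. Of the survival factors 3, 4 and 4 were called higher against Sham in MI_stiff, MI_soft and MI, where 12.7%, 16.4% and 20.2% of all tested genes were, and none between ligated groups. Tnfsf13b (BAFF, the main survival factor of B cells) rose in MI_soft by 1.99 ± 0.58 (edgeR, adjusted p = 0.0175) and in MI by 1.93 ± 0.58 (adjusted p = 0.0157) against Sham. The first call was lost without MI_soft 2, Sham 1 or Sham 4 (adjusted p of at most 0.0749) and the second without Sham 1 (adjusted p = 0.0527). Tnfsf13 (APRIL, a factor of plasma cells) rose by 0.95 ± 0.25, 1.12 ± 0.25 and 1.11 ± 0.25 in MI_stiff, MI_soft and MI (adjusted p = 0.0121, 0.0036 and 0.0027). Between MI_stiff and MI_soft Tnfsf13b differed by −0.58 ± 0.55 and did not pass (adjusted p = 0.64).

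Il10, a cytokine that promotes antibody secretion among other actions, had its highest levels in MI_stiff, at 5.97, 0.241, 3.66 and 0.604 CPM, against 0.672, 0.913, 0.198 and 0.418 CPM in MI_soft. Its 142 counts in MI_stiff and 29 in MI_soft stood against 1 in Sham, ratios of 127 (counting interval 22.5 to 5060) and 26.5 (4.39 to 1080). These intervals cover counting error only, and MI_stiff 1 and 3 held 78 and 52 of the 142 counts. For MI_stiff against MI_soft the log2 difference was 2.23 ± 1.02 and did not pass (edgeR, adjusted p = 0.33). Against Sham, edgeR called Il10 in MI_stiff (adjusted p = 0.00332) and in MI_soft (adjusted p = 0.0367), the latter lost in 8 of 23 alternatives.

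Ccl21, the other ligand of CCR7, was highest in MI: 56.0, 54.9, 32.7 and 64.9 CPM in MI_stiff, 91.4, 121, 106 and 257 CPM in MI_soft, 515, 624, 184 and 224 CPM in MI, and 24.6, 17, 21.7 and 23.2 CPM in Sham. Only MI_soft 4 reached into the MI range, and MI_stiff lay below both. It rose against Sham by 1.27 ± 0.38 in MI_stiff, 2.73 ± 0.40 in MI_soft and 4.16 ± 0.43 in MI (edgeR, adjusted p = 0.0247, 9.7e-05 and 2.09e-06), the first lost without MI_stiff 1, MI_stiff 2, MI_stiff 4, Sham 2 or Sham 3 (adjusted p of at most 0.0848). For MI_stiff against MI it fell by 2.89 ± 0.40 log2 units (adjusted p = 0.00676, at most 0.0294 in the alternatives), and it differed by −1.46 ± 0.38 for MI_stiff against MI_soft and −1.43 ± 0.38 for MI_soft against MI (adjusted p = 0.117 and 0.127). Both were called with DESeq2's Wald test (adjusted p = 0.0154 and 0.0168) and without the 4 libraries with few detected genes (0.0147 and 0.00148), and MI_soft against MI also without MI 1 (0.0465). Ccl19 and Ccl21 thus shared their order of MI_stiff below MI and MI_soft, while MI_soft was the highest group for Ccl19 and MI for Ccl21.

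Cxcl13, which draws B cells into follicles through CXCR5, was at 48.6, 56.1, 50.7 and 66.7 CPM in MI_stiff, 34.7, 186, 35.0 and 138 CPM in MI_soft, 38.4, 10.9, 3.94 and 20.3 CPM in MI, and 2.02, 6.43, 3.65 and 3.72 CPM in Sham. It rose against Sham by 3.82 ± 0.65 in MI_stiff, 4.64 ± 0.67 in MI_soft and 2.23 ± 0.62 in MI (edgeR, adjusted p = 0.000455, 8.57e-05 and 0.00959, the last 0.103 with limma-voom). The MI_soft libraries with high Cxcl13 were 2 and 4, whereas those with high Ighe were 1 and 4. Ccr7, the receptor of CCL19 and CCL21, rose in MI_soft against Sham by 2.87 ± 0.81 (adjusted p = 0.0148, and 0.0607 without MI_soft 4), at 1.79, 1.14, 4.69 and 9.03 CPM in MI_soft and 0.466, 0.757, 0.155 and 0.872 CPM in Sham.

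Cxcl12, which holds plasma cells in their niche, fell in MI_soft against Sham by 0.97 ± 0.23 log2 units (edgeR, adjusted p = 0.00561), and in the deposited TPM by 0.40 (limma, adjusted p = 0.631). Its difference for MI_stiff against MI_soft was 1.23 ± 0.24 (adjusted p = 0.0507), with 205, 219, 188 and 176 CPM in MI_stiff and 63.7, 136, 70.8 and 65.7 CPM in MI_soft, groups that did not overlap. It was called without MI 1, without MI 3 and without MI_soft 2 (adjusted p = 0.0263, 0.0197 and 0.00738), with DESeq2's size factors (0.0458), DESeq2's Wald test (0.000251) and limma-voom (0.0226), with mitochondrially encoded genes left out (0.0417) and without the 4 libraries with few detected genes (0.0136). Lta, a lymphotoxin chain, had too few counts to be tested.

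Receptors for IgE and mast cell genes formed a list of 14, of which 9 were tested. Fcer1g, the signalling chain of the high-affinity IgE receptor and of other Fc receptors, rose against Sham by 2.48 ± 0.57 in MI_stiff, 3.53 ± 0.59 in MI_soft and 1.72 ± 0.56 in MI (edgeR, adjusted p = 0.00456, 0.000322 and 0.022), the last lost without MI 1, Sham 1, Sham 3 or Sham 4 (adjusted p of at most 0.14), with 230 CPM in MI_soft 4 as its highest value. Kit, the stem cell factor receptor, fell in MI against Sham by 1.93 ± 0.74 (adjusted p = 0.049, a call lost in 18 of 25 alternatives), and no gene of the list was called between ligated groups. Il4 and Il13, the cytokines that switch B cells to IgE, had no count in any library.

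Markers of other cell types were summed by library. The summed level of 19 T and NK cell genes was 27.5 to 77.0 CPM in MI_stiff, 97.8 to 241 CPM in MI_soft, 19.1 to 149 CPM in MI (149 in MI 1) and 37.0 to 52.5 CPM in Sham. None of the 18 tested was called between MI_stiff and MI_soft (median −1.20), and 1, Cd4, was called higher in MI_soft against Sham. That is 5.56% of the 18, against 16.4% of all tested genes. Cd4, which rat macrophages also carry, made up much of the sum: without it, a choice made after seeing the data, the other 18 genes summed to 11.5 to 50.6 CPM in MI_stiff, 44.2 to 123 CPM in MI_soft, 9.29 to 58.5 CPM in MI and 22.7 to 38.7 CPM in Sham. MI_soft then overlapped MI_stiff and MI but not Sham. For 11 macrophage genes the sum was 684 to 2686 CPM in MI_stiff, 1761 to 5663 CPM in MI_soft, 558 to 1669 CPM in MI and 167 to 207 CPM in Sham, and 11, 11 and 9 of the 11 were called higher against Sham in MI_stiff, MI_soft and MI, where 12.7%, 16.4% and 20.2% of all tested genes were, and none between MI_stiff and MI_soft. The part of these cells in the B lineage counts against Sham was not tested.

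The 6 MHC class II genes with a row summed to 252 to 1437 CPM in MI_stiff, 1090 to 3878 CPM in MI_soft, 329 to 1110 CPM in MI and 355 to 457 CPM in Sham. Of the 5 tested, 3, 5 and 3 were called higher against Sham in MI_stiff, MI_soft and MI (all tested genes 12.7%, 16.4% and 20.2%), and none between ligated groups. For 8 dendritic cell genes the sum was 21.2 to 54.5 CPM in MI_stiff, 14.6 to 20.5 CPM in MI_soft, 3.83 to 17.3 CPM in MI and 11.7 to 21.5 CPM in Sham. Itgax and Zbtb46, which other cells also use, were 37.8 and 12.4 CPM of the 54.5 CPM in MI_stiff 3. Xcr1, a marker of cross-presenting dendritic cells, had 28 counts in MI_stiff, 111 in MI_soft (63 of them in MI_soft 4), 49 in MI and 33 in Sham. Siglech, of plasmacytoid dendritic cells, had 6 counts in MI_soft and 0 in the other groups. Ccl22 and Ccl17 had more counts in MI_stiff than in MI_soft. Their counts in MI_stiff, MI_soft, MI and Sham were 171, 125, 96 and 7 for Ccl22 and 21, 11, 0 and 0 for Ccl17. Batf3 had 2, 7, 9 and 7 in the same order. None of the 4 tested genes of the list was called between MI_stiff and MI_soft.

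The 7 lymphatic endothelial genes, Ccl21 among them, summed to 121 to 186 CPM in MI_stiff, 230 to 379 CPM in MI_soft, 369 to 893 CPM in MI and 57.6 to 76.7 CPM in Sham. Fat cell genes, of which 5 had a row, summed to 228 to 392 CPM in MI_stiff, 266 to 353 CPM in MI_soft, 253 to 660 CPM in MI and 225 to 310 CPM in Sham. Fabp4 and Lipe, which other cells also express, dominated that sum. The other 3, Adipoq, Plin1 and Cidec, summed to 0 to 7.72 CPM in MI_stiff, 0.224 to 46.1 CPM in MI_soft, 0 to 17.7 CPM in MI and 0 to 0.0792 CPM in Sham, and Adipoq stood at 23.0 CPM in MI_soft 2 and 16 CPM in MI_soft 4. Those 3 genes, 60% of the 5, were called higher in MI_soft against Sham, where 16.4% of all tested genes were. In MI against Sham 4 of the 5 were called higher (Fabp4 the other), where 20.2% of all tested genes were. The calls of these 3 genes in both comparisons were lost with limma-voom and with TPM in limma, those in MI also without any 1 Sham library, and that of Plin1 in MI_soft without MI_soft 2 or any 1 Sham library. Red blood cell genes, of which 2 had a row, summed to 103 to 530 CPM in MI_stiff, 432 to 1274 CPM in MI_soft, 124 to 404 CPM in MI and 611 to 993 CPM in Sham. Thymus genes were near 0, with sums of at most 0.724 CPM in any library. The part of these tissues in the members' levels was not tested.

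**Figure D5:**
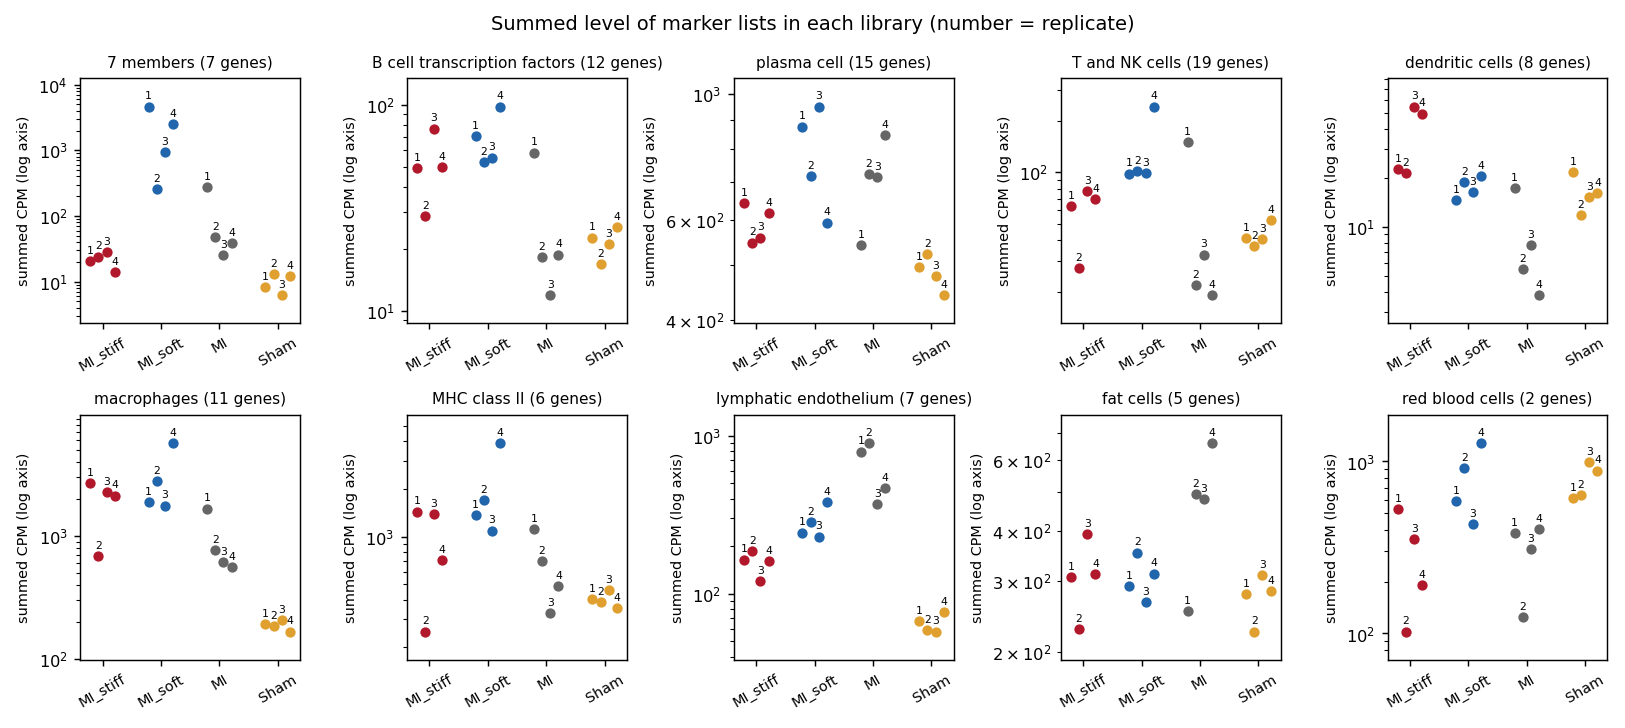
Summed CPM of the members and of 9 marker lists in each library (log axes, numbered by replicate). The members' sum is 256 to 4622 CPM in MI_soft and 14 to 27.9 CPM in MI_stiff, the T and NK cell sum, with Cd4 in it, is also highest in MI_soft and MI 1, and the macrophage sum is above Sham in every ligated library.

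The tested genes most like the mean of the 7 members over the 16 libraries, by Pearson's r of log2 CPM, were Pou2af1 (0.897), LOC100361105 (0.895), Spib (0.868), Nr1d1 (0.852), Ciart (0.847), Gpr171 (0.843), Dbp (0.831), Lax1 (0.813), Cd5l (0.809) and Calr (0.808). Of these, Pou2af1 and Spib were in the B lineage lists. LOC100361105, which no annotation used here names, was at 15.2, 0, 11.7 and 3.34 CPM in MI_soft and at most 0.738 CPM elsewhere, and it also led after group means were subtracted (r = 0.85). Nr1d1, Ciart and Dbp are output genes of the circadian clock. Dbp stood at 5.51, 6.03, 36.2 and 4.50 CPM in MI_stiff, 185, 175, 145 and 397 CPM in MI_soft, 175, 56.4, 48.9 and 31.6 CPM in MI, and 9.87, 10.2, 10.2 and 9.43 CPM in Sham, so MI 1 was the high MI library here too.

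By single member, Pou2af1 was the most like Ighe (0.92), Jchain (0.866) and Mzb1 (0.901), Zbtb32 the most like Cd79a (0.858) and Cd79b (0.815), and Atf4 the most like Ms4a1 (0.865). Ccl19 was most like Mfap4 (0.974), a matrix protein of microfibrils, Serping1 (0.963), an inhibitor of complement, and Fcgrt (0.962), the neonatal Fc receptor. These values describe libraries that share groups and depth.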

How the data were processed

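Bulk RNA from the infarct zone was measured in 16 libraries, grouped by the labels. The authors deposited expected counts per gene, estimates that need not be whole, and TPM, which also accounts for transcript length, for 17085 genes. Per the submitters' processing notes STAR 2.7.3a, RSEM 1.3.1 and genome build rn7 were used. The annotation and strand setting were not given in the sources used, so antisense and overlapping genes cannot be separated. Counts were rounded (0.785% were not whole, and none of the members' were).

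Genes were filtered by edgeR's default on expression, leaving 11376, and tested with edgeR 4.0.16 in R 4.3.3 (TMM factors, robust quasi-likelihood fit of all 16 libraries, 1 coefficient per group, Benjamini-Hochberg adjustment over all tested genes, called under 0.05). Levels are CPM with TMM factors, and log2 CPM has a prior count of 2. DESeq2 1.42.0, limma 3.58.1 and the other alternatives are compared at the end. Count ratios have exact 95% intervals for counting error. The script was tested on simulated data.

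The members, the gene lists and the 4 libraries with few detected genes were chosen with earlier results of these data known, so no list is independent evidence. The text names the members, up to 4 called genes of each B lineage and signal list (or the 2 with the largest differences), fixed defining markers, the 10 genes most like the members' mean and the gene most like each member (for Ccl19 the 3 most like it). Fcer2 and Cxcl12, the only genes of their lists called lower against Sham in MI_soft, and Il4, Il13 and Lta were named after their values were seen. Some items of the lists are not reported here by name. Genes of the other cell type lists are given by counts and summed levels. Promoters came from RefSeq (GRCr8), and none of its coordinates was joined to the rn7 counts.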

Additional observations from a re-analysis of the deposited data

Results flagged for a closer look

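Among 28 sets of 4 libraries (7 genes in 4 groups), 5 library values lay far from the other 3 by Dixon's ratio. Its cutoff is passed by about 1 of 20 sets of normally distributed values. CPM that hold zeros are not such values, and the genes were chosen by their levels in these libraries. The number found is therefore not compared with that rate. With 0 in the other 3, as for Mzb1 in MI, the ratio is 1 at any size. In MI, library 1 was high for Ighe (208.435 CPM, against 3.38 to 5.83 CPM in the other 3), Jchain (18.686 CPM, against 0 to 3.01 CPM) and Mzb1 (2.76601 CPM, against 0 CPM), and library 2 was high for Ms4a1 (2.68078 CPM, against 0 to 0.182 CPM). MI 2, MI 3 and MI 4 had the fewest genes detected of all libraries, whose part in these values was not tested. In MI_soft, library 2 was low for Mzb1 (5.47504 CPM, against 27.4 to 31.5 CPM in the other 3).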

How the results depend on the processing

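Of the 12 counts of called genes, those for the members in MI_soft against Sham (7) and MI_stiff against Sham (1) stayed within 1.5 times in all 25 alternatives. The first of these was 5 to 7 without 1 library. For the members in MI_soft against MI (0), the count was 3 with DESeq2's Wald test, 1 with limma-voom, 2 with TPM in limma and 0 to 3 without 1 library. In MI_stiff against MI (0) it was 1 with DESeq2, 1 without the 4 libraries with few detected genes and 0 to 1 without 1 library. In MI_stiff against MI_soft (2) it was 1 with no filter, 5 with DESeq2, 4 with TPM, 6 without those 4 libraries and 0 to 4 without 1 library. In MI against Sham (2) it was 1 with no filter, 1 with limma-voom, 1 with TPM, 1 with only the 2 groups fitted and 1 to 3 without 1 library. For the other B lineage genes, MI_soft against MI (0) gave 6 with DESeq2 and 0 to 15 without 1 library, MI_stiff against MI (0) gave 4, 1 without the 4 libraries and 0 to 9 without 1 library, and MI_stiff against MI_soft (0) gave 2, 5 without the 4 libraries and 0 to 1 without 1 library. MI_stiff against Sham (7) gave 11 with TPM, 15 with only the 2 groups fitted and 17 without the 4 libraries, and without 1 library MI_soft against Sham (20) gave 12 to 23 and MI against Sham (12) gave 11 to 20. The cause was not tested.

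Same-numbered libraries of different groups did not deviate together (r of −0.285 to 0.176, median −0.027, in 24 pairs, against −0.309 to 0.383, median 0.0206, in 72 pairs of other numbers). With the replicate block the members called were 0 in MI_stiff against MI_soft and 1 in MI against Sham.

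The log2 difference of Ighe in MI against Sham was −0.4304 without MI 1 and up to 3.618 without another library. Without the 4 libraries, which leaves MI with MI 1 alone, assumed to vary like the other groups, the sign turned for Fas in MI_soft against MI (0.2423), for Ikzf1 (−0.1421), Ciita (−0.2287) and S1pr2 (−0.4162) in MI_stiff against MI, and for Fabp4 in MI against Sham (−0.1565), none of these called after the change. Ccl19 in MI_soft against MI was then −0.25. The median of all genes shifted by −0.122 with limma-voom in MI against Sham, and with TPM by 0.205, 0.131 and 0.199 in MI_stiff against MI, MI_soft and Sham. Over all single non-member genes named, 3685 of 3953 alternative values kept their direction and side of the threshold, 210 lost a call, 53 gained one and 5 turned sign. Of 1036 such values of the members, 971 moved by at most 1 SE of the fit, 64 moved by more and 1 turned the sign of a called value, and 29 changed sign in all. At 0 to 32 counts per library, levels of Cd79a, Cd79b and Ms4a1 outside MI_soft rest on few reads.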
